A study of Sus scrofa with 12 samples.

Results

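The genes described here encode the factors that bring proteins into mitochondria and put the respiratory complexes together, and they were followed through the in vitro maturation (IVM) of porcine oocytes. They were chosen by pig gene symbol. A gene belonged to the set when its symbol began with TIMM, TOMM, NDUFAF, UQCC, SDHAF, ATPAF or COA with a digit, or was SAMM50, BCS1L, SURF1, SCO1, SCO2, COX10, COX11 or one of COX14 to COX20. Of the 31908 identifiers listed in each library, 52 were members. Another 7 symbols of the rule, SDHAF1, SDHAF4, NDUFAF2, UQCC6, COA3, COA5 and COX14, belong to identifiers that were not analysed here, and SDHAF3, TIMM9, TOMM6 and UQCC, symbols in the RefSeq annotation that the names used here give to no identifier, were not analysed under those symbols. COX20 was given to no identifier and was not analysed either. One member, TOMM5, has its name from the gene table of the study alone.

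Denuded oocytes were collected from cumulus-oocyte complexes after 0h, 22h and 46h of IVM, with 4 libraries for each time and 20 oocytes in each, which makes 12 libraries. The complexes were aspirated from slaughterhouse ovaries of prepubertal gilts and pooled. The 22h and 46h groups were cultured in a medium with gonadotropins and the 0h group was collected before culture, so time in culture and exposure to hormones cannot be told apart from stage, and no untreated culture or genotype contrast is part of the design. The design text names the stages as germinal vesicle (GV) for 0h, Pre-MI for the middle time and metaphase II (MII) for 46h, and it writes the middle time as 24h where the sample labels give 22h. These names stand here for the times of collection, since earlier work cited by the study found part of the oocytes outside the named stage at similar times, most of all MII, and a pool may hold such oocytes. Values are FPKM, fragments relative to transcript length and to all fragments of the library. Being per length they allow levels of different genes to be compared only roughly, since they do not correct for how well each mRNA was primed. Whether short transcripts, such as that of TOMM7 (427 bases in RefSeq), are measured like long ones was not tested. Comparisons between libraries depend on the scaling, which was varied. Nothing in the labels says that the replicates of a time came from separate animals or cultures, so p-values measure the spread between these libraries, which may be technical. The sequencing depth is unknown, since FPKM values hold no counts, and no counting interval is given.

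Nearly all mitochondrial proteins are encoded in the nucleus and made in the cytosol. They pass the outer membrane through the TOM complex, and the inner membrane through the TIM23 complex, which takes precursors with a cleavable presequence, or the TIM22 complex, which inserts carriers with the help of small TIM chaperones. Respiratory complexes are then built from imported and mitochondrially encoded subunits by dedicated assembly factors that do not stay in the finished enzyme. Oocytes carry a large store of mitochondria and of maternal mRNA, and during meiotic maturation, when transcription is silent, mRNAs differ in how long they last and in the length of their poly(A) tails. An mRNA that keeps its body but loses its tail is primed less well by the oligo-dT used here, so FPKM reflects both.

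A pair of promoters is shown first, those of TOMM20, which had the largest fall between 0h and 46h among the 28 members tested on the log2(FPKM + 1) scale, and of TOMM7, the member with the highest mRNA level at every time. Each sequence runs from 250 bases before to 50 bases after the annotated gene start on the gene's strand, in Sscrofa11.1 with RefSeq annotation, at chr14:56112837-56113136 (plus strand) for TOMM20 and chr9:91578942-91579241 (minus strand) for TOMM7. Capitals mark matches to the NRF1 motif (GCGCA and GCGC with any 1 base between them) and the ETS motif CCGGAAGT, which were searched on both strands.
TOMM20: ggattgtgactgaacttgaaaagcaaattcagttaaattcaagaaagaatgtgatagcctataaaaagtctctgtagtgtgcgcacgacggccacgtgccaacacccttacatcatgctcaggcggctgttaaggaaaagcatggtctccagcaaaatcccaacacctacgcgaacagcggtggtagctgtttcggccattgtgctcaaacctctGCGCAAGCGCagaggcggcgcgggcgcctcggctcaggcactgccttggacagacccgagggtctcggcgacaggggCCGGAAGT
TOMM7: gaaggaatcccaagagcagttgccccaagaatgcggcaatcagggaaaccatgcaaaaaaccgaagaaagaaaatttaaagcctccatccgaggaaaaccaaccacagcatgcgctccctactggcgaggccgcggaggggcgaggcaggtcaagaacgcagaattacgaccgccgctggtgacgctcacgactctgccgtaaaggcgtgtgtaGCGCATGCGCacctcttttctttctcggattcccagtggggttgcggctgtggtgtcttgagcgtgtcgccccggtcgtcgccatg
Both promoters held 1 NRF1 match, and the TOMM20 promoter also held 1 ETS match at the end of its window. NRF1 is a transcription factor known for its binding to promoters of nuclear genes for mitochondrial proteins. By symbol, 36 of the 52 members were matched to RefSeq genes. Their promoters held the NRF1 motif in 6 of 36 (16.7%: COX17, SCO2, TIMM13, TIMM29, TOMM20 and TOMM7), beside 6.32% of 19534 promoters of protein-coding genes and 10.9% of 5773 promoters of genes tested below. The ETS motif stood in 5 (13.9%: COX10, TIMM13, TIMM8B, TIMMDC1 and TOMM20), beside 4.68% and 8.49%. The YY1 motif AAGATGGC, also searched on both strands, stood in 3 (8.33%: COX10, NDUFAF8 and TOMM5), beside 2.48% and 3.83%. A match describes the letters only, and the members with the NRF1 motif ranged from the highest level of the set to levels under 1 FPKM.

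Across the whole series, oocyte markers were abundant in sum in every library. Of 12 such markers 10 were listed, among them ZP2, ZP3, ZP4, BMP15 and GDF9, and their sum ran from 13800 to 19300 FPKM (0h), 16400 to 23400 FPKM (22h) and 4010 to 7480 FPKM (46h). Of 18 cumulus and granulosa cell markers 15 were listed, which summed to 45.0 to 98.2, 61.3 to 93.7 and 121 to 156 FPKM at the same times. VCAN was the most abundant of them, with means of 58.3, 65.0 and 126 FPKM at 0h, 22h and 46h. KITLG (10.4, 9.2 and 12.2 FPKM) and STAR (4.47, 3.5 and 4.63 FPKM) also had means of at least 1 FPKM. The others listed had means under 1 FPKM, and AMHR2, INHA and LHCGR were listed at 0 throughout. CYP19A1, HSD3B1 and FOXL2 were not found. The 13 mitochondrially encoded mRNAs took at most 3.76% of total FPKM in the 0h libraries, at least 8.06% in the 22h libraries and at least 12.8% in the 46h libraries. Replicate 4 of 0h correlated least with its own group (r from 0.934 to 0.97 across genes). The labels name no batch.

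The mRNA levels of the members fell into a few abundant genes and many scarce ones, and the number of abundant genes shrank as the oocytes matured. At 0h, 36 of the 52 members had a mean of at least 1 FPKM and 16 a mean of at least 10 FPKM. These numbers were 29 and 12 at 22h, and 21 and 4 at 46h. The 4 that remained at 10 FPKM or more in MII oocytes were TOMM7, NDUFAF4, COA7 and NDUFAF1.

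**Figure D1:**
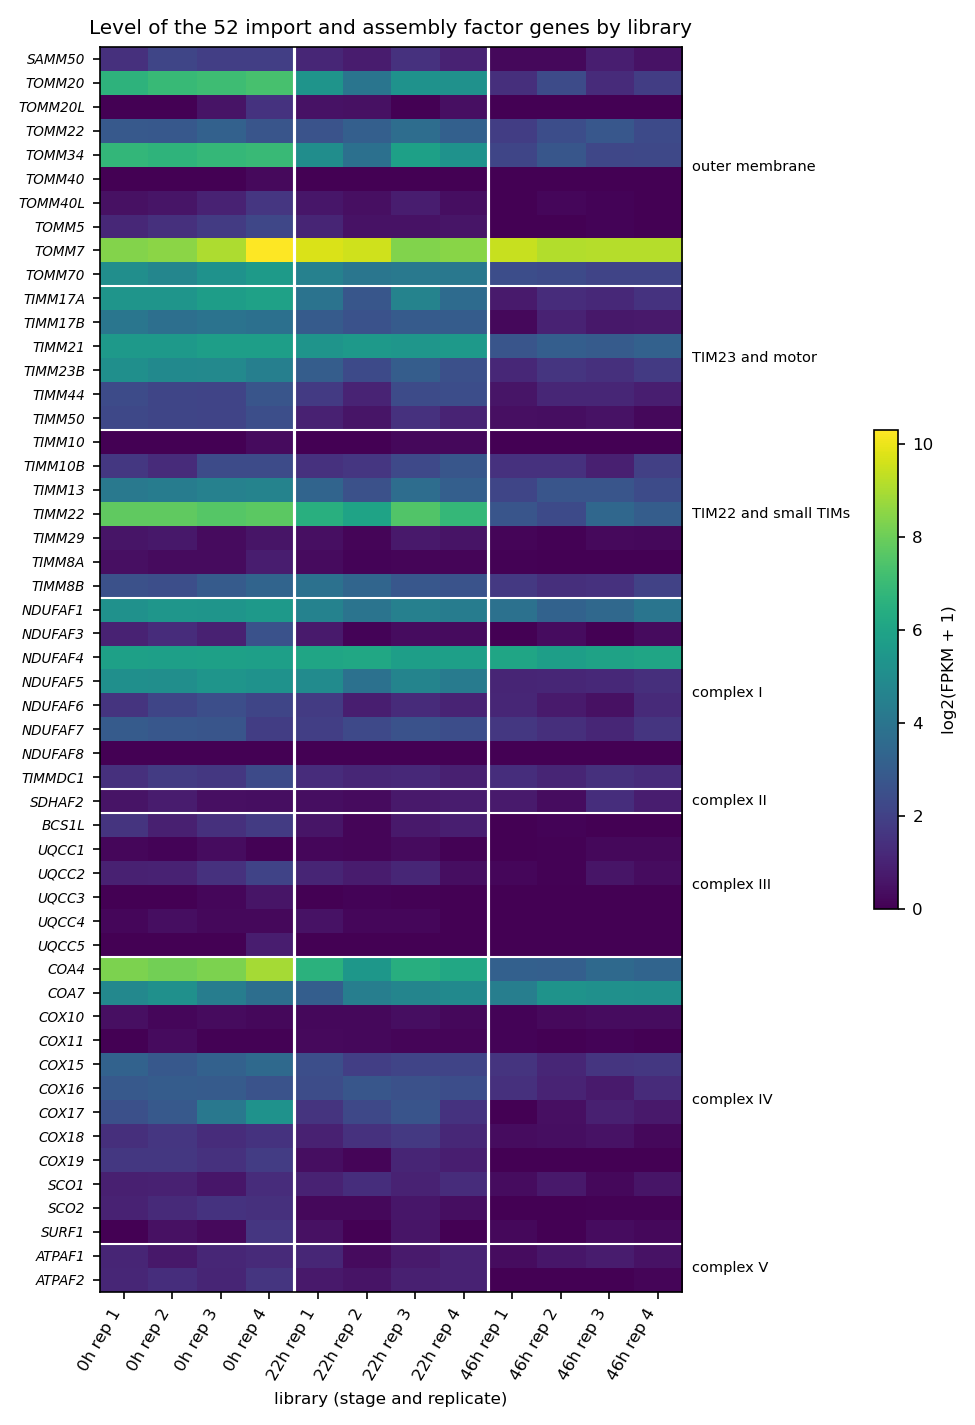
Level of each of the 52 members in each of the 12 libraries, as log2(FPKM + 1), with genes in rows grouped by role and libraries in columns grouped by time. NDUFAF4 keeps its colour across all columns and TOMM7 and COA7 vary within each time, whereas TOMM20, TOMM34, TIMM17A, TIMM22, NDUFAF5 and COA4 darken from left to right.

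The sum over the 52 members was 1869 ± 598 FPKM (SD, n = 4) in GV oocytes, 1096 ± 216 at 22h and 762.8 ± 54.8 in MII oocytes. Without replicate 4 the sum in GV oocytes was 1575 ± 143 FPKM (SD, n = 3). A single gene carried much of this sum. TOMM7 made up between 22.5% and 46.2% of the members' FPKM in the 0h libraries, between 33.4% and 66.6% in the 22h libraries and between 75.7% and 81.7% in the 46h libraries. Without TOMM7, the other 51 members summed to 1243 ± 159, 524.3 ± 115 and 168.8 ± 12.8 FPKM, and the libraries of the 3 times did not overlap. In these bulk libraries fewer oocytes with an mRNA and less of it in each oocyte cannot be told apart.

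**Figure D2:**
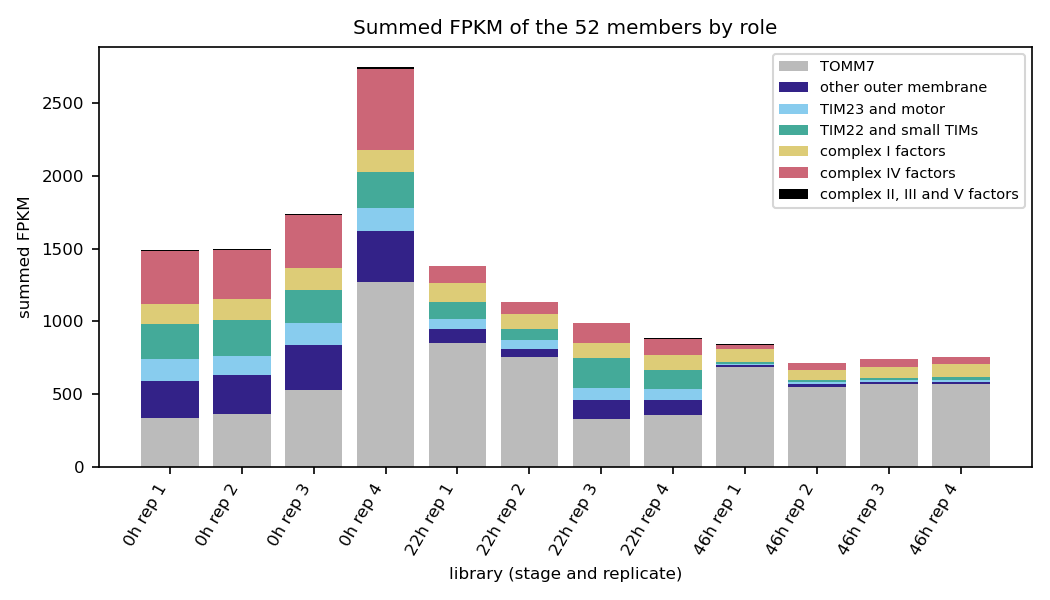
Summed FPKM of the members in each library, stacked by role, with TOMM7 drawn apart from the other outer membrane genes. Without TOMM7 the stacks would span 1131 to 1477 FPKM (0h), 378.5 to 658.8 FPKM (22h) and 153.6 to 183.2 FPKM (46h), and the tallest stack is replicate 4 of 0h.

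The stages were compared with limma on log2(FPKM + 1) for the 7013 genes whose mean over the 12 libraries reached 1 FPKM, of which 28 were members. Calls required a two-sided Benjamini-Hochberg adjusted p under 0.05 together with a fold change over 1.5. Log2 fold changes are on the log2(FPKM + 1) scale, which understates the change of scarce mRNAs. At 22h against 0h, 17 of the 28 members tested were lower, none was higher and 11 were not called, where 26.7% of all genes tested were called, 18.9% lower and 7.84% higher. The members' median log2 fold change was -0.80, beside 0.00 for all genes. From 22h to 46h, 22 were lower, none higher and 6 not called, where 42.4% of all genes were called, 32.6% lower and 9.87% higher, with medians of -0.96 and -0.26. At 46h against 0h, again 22 were lower, none higher and 6 not called, where 55.9% of all genes were called, 39.1% lower and 16.8% higher, with medians of -1.75 and -0.25. The comparisons share libraries in pairs and are not independent of each other.

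**Figure D3:**
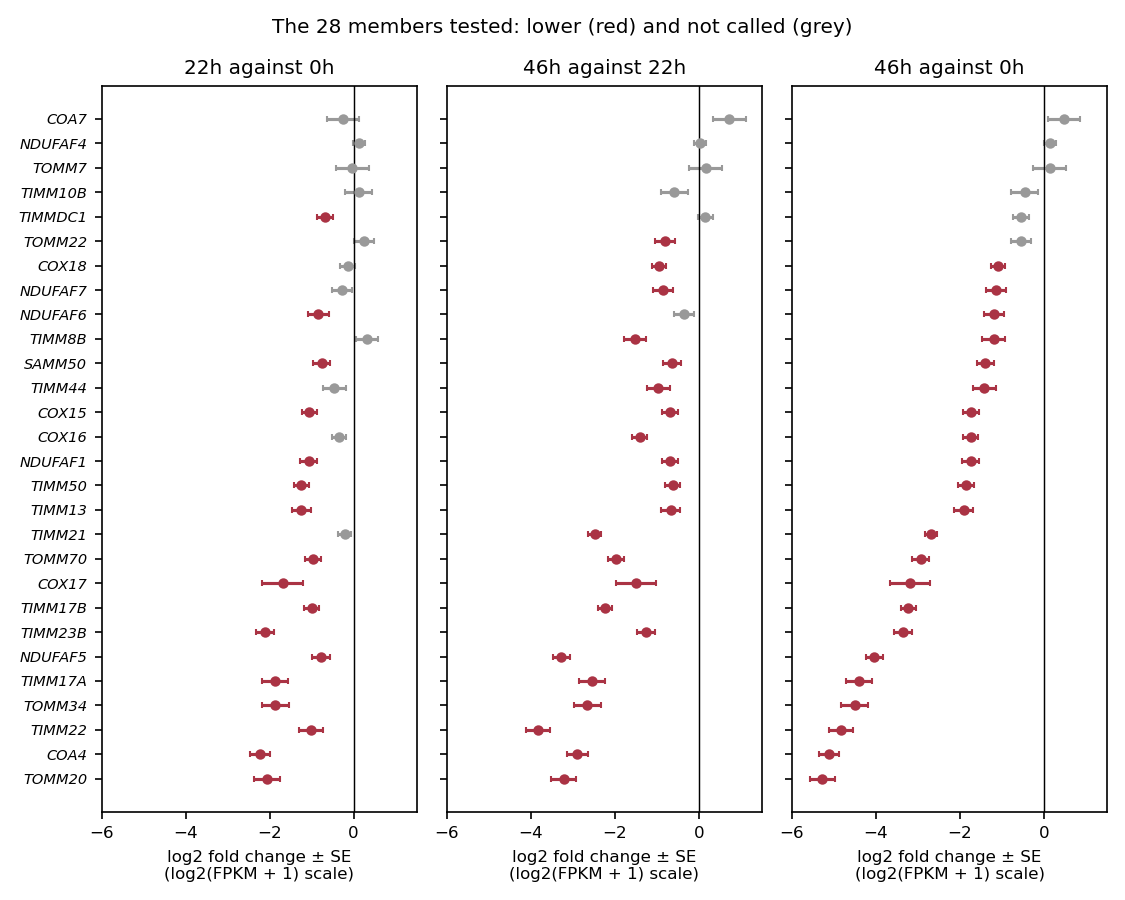
Log2 fold changes with standard errors of the 28 members tested in the 3 comparisons, in the order of the change at 46h against 0h, with lower members in red and members not called in grey. In the panel of 46h against 0h the changes run from -5.28 for TOMM20 to 0.47 for COA7, and no red point lies to the right of 0.

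The libraries themselves were apart for many members. All 4 libraries at 22h lay below all 4 at 0h for 15 of the 28 members tested, beside 18.6% of all genes tested. All 46h libraries lay below all 22h libraries for 17 (35.4% of all genes), and below all 0h libraries for 22 (39.2% of all genes). No member had all libraries of a later time above those of an earlier one. Of the 28 members, 7 (SAMM50, TIMM17B, TIMM44, TIMM50, NDUFAF6, COX17 and COX18) had a mean under 1 FPKM at 46h and passed the filter only through the earlier times, so their fall is partly built into the filter.

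The number of members called lower depended on the scaling, most of all from 22h to 46h. In that comparison 15 were lower and 1 (COA7) higher under median-of-ratios scaling, 12 were lower and 2 (COA7 and TIMMDC1) higher after quantile normalization, and 22 and 0 in TPM. At 22h against 0h these numbers were 17 and 0, 16 and 0, and 17 and 0. At 46h against 0h, 22 were lower and 0 higher after median-of-ratios scaling, 24 and 0 in TPM, and 18 and 2 after quantile normalization, where COA7 and NDUFAF4 became higher. The median of all genes moved from -0.25 to 0.00, -0.35 and 0.37 in that order, and the members' median minus it was -1.5 as deposited and -1.51, -1.59 and -1.45. In TPM computed without the 13 mitochondrially encoded genes, whose share of FPKM grew, 17, 22 and 22 members were lower and 0 higher in the 3 comparisons, with a median of -1.82 at 46h against 0h beside -0.20 for all genes. Among all genes called in this comparison the share of higher ones was 30.1% as deposited and 44.1%, 25.6% and 61.7% under median-of-ratios scaling, in TPM and after quantile normalization. From 22h to 46h it was 23.3%, then 42.2%, 17.2% and 59.5%, and at 22h against 0h it was 29.4%, then 30.5%, 28.7% and 48.2%, and 39.5% in TPM without mitochondrially encoded genes.

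Among the 10 outer membrane members, the mRNAs of the receptors TOMM20 and TOMM70 fell while that of the small subunit TOMM7 was not called. Of the 6 tested, 4 were lower at 22h against 0h, 5 at 46h against 22h and 4 at 46h against 0h. All genes tested were lower in 18.9%, 32.6% and 39.1% of cases in the same order. The median of the 6 was -2.17 at 46h against 0h. TOMM20 (ENSSSCG00000010158, Sscrofa11.1 chromosome 14, 56113087 to 56127686) encodes the receptor that first binds presequences. Its level was 100.3, 122, 136 and 159 FPKM in replicates 1 to 4 of 0h, 39.0, 15.1, 37.0 and 35.9 FPKM at 22h, and 1.63, 4.15, 1.43 and 2.67 FPKM at 46h. No libraries overlapped between times, and the level at 46h was 1.91% of that at 0h. The log2 fold change was -2.06 at 22h against 0h (SE 0.303, adjusted p = 0.000217), -3.22 at 46h against 22h (adjusted p = 8.4e-07) and -5.28 at 46h against 0h (adjusted p = 2.49e-09).

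TOMM34 (ENSSSCG00000007383, chromosome 17, 47352144 to 47376571) encodes a cytosolic co-chaperone of preproteins, named with the TOM genes although it is not a subunit of the channel. It stood at 113, 103, 117 and 126 FPKM at 0h, at 32.1, 13.1, 57.6 and 36.8 at 22h, and at 3.51, 5.78, 3.59 and 3.70 at 46h. The times were again fully apart, with replicate 2 the lowest library of 22h for both TOMM20 and TOMM34. The change at 46h against 0h was -4.51 (SE 0.323, adjusted p = 2.35e-08). TOMM70, the receptor for carrier precursors, fell from 36.3 ± 9.65 FPKM (SD, n = 4) to 17.7 ± 2.93 and then 3.75 ± 0.495 FPKM, by 0.97 on the log2 scale at 22h against 0h (adjusted p = 0.00183) and by 1.97 at 46h against 22h (adjusted p = 1.21e-06). SAMM50, which inserts barrel proteins into the outer membrane, was scarcer, at 2.66 ± 0.718, 1.16 ± 0.452 and 0.388 ± 0.314 FPKM, and fell by 1.40 at 46h against 0h (adjusted p = 3.87e-05). Its smaller change of -0.64 at 46h against 22h lost its call without replicate 3 of 22h (-0.51), without replicate 1 of 46h (-0.56) or without replicate 2 of 46h (-0.56), under median-of-ratios scaling (-0.53) and with no filter on low values (adjusted p = 0.061), and was -0.03 with quantile normalization. Its fall by 22h did not pass with a pseudocount of 0.1 (-1.15, adjusted p = 0.056).

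TOMM7 (ENSSSCG00000015384, chromosome 9, 91570069 to 91578991) encodes a small subunit that tunes the stability of the TOM complex. Its level was 336, 365, 530.3 and 1271 FPKM at 0h, 847, 754, 331 and 357 at 22h, and 688, 552, 566 and 570.2 at 46h. The times overlapped widely, 0h replicate 4 was the highest of all 12 libraries, and replicates 1 and 2 of 22h lay far above replicates 3 and 4. Between 0h and 46h the change was 0.14 with a 95% confidence interval from -0.70 to 0.98 (adjusted p = 0.77). Without 0h replicate 4 it was 0.56 (adjusted p = 0.125), and no scaling made it pass. TOMM22, the central receptor, was chosen for display after its values were seen, as the other outer membrane member not called at 46h against 0h. It was 6.36, 6.15, 8.29 and 5.50 FPKM at 0h, 5.18, 7.76, 11.97 and 8 at 22h, and 2.64, 4.41, 5.89 and 4.04 at 46h. The groups overlapped in each comparison, and the change of -0.80 from 22h to 46h (adjusted p = 0.0118) lost its call with median-of-ratios scaling (-0.53) and quantile normalization (-0.28). At 46h against 0h its change was -0.55 (adjusted p = 0.0537), which passed without 0h replicate 4 (-0.62) or 46h replicate 3 (-0.70), in TPM (-0.67) and with a pseudocount of 0.1 (-0.66), and was 0.13 after quantile normalization.

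The other 4 outer membrane members were under the filter. TOMM40, the gene of the channel itself, was listed at 0 in 11 of 12 libraries and at 0.19 FPKM in 0h replicate 4. Its RefSeq transcript has 1097 bases, of which 1086 are coding. Whether the annotated 3′ end is complete was not tested, so these values do not show that the mRNA was absent. Its paralog TOMM40L was 0.998 ± 0.787, 0.493 ± 0.222 and 0.0475 ± 0.0585 FPKM (SD, n = 4) at the 3 times, and 0.627 ± 0.323 FPKM at 0h without replicate 4 (n = 3). The small subunit TOMM5 was 2.23 ± 1.04, 0.603 ± 0.314 and 0.03 ± 0.0346 FPKM, with the 3 times fully apart (exact two-sided permutation test, p = 0.0286 in each comparison, the smallest that 4 against 4 libraries can give). TOMM20L reached 1.83 FPKM in 0h replicate 4 and was listed at 0 in all 46h libraries.

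The 6 TIMM members of the TIM23 channel and its import motor were lower in MII oocytes. All of them (TIMM17A, TIMM17B, TIMM21, TIMM23B, TIMM44 and TIMM50) were tested, 4 were lower at 22h against 0h, and each of the 6 was lower in both comparisons with 46h, with a median of -2.96 at 46h against 0h. Among all genes tested the shares lower were 18.9% (22h against 0h), 32.6% (46h against 22h) and 39.1% (46h against 0h). TIMM17B, TIMM44 and TIMM50 passed the filter only through the earlier times. The 6 members together summed to 148.2 ± 10.1 FPKM (SD, n = 4) in GV oocytes, 73.3 ± 10.1 at 22h and 11.99 ± 2.48 in MII oocytes. TIMM17A (ENSSSCG00000037431, chromosome 10, 24200345 to 24211790) and TIMM17B encode alternative forms of a channel subunit. TIMM17A was 40.8, 40.1, 52.9 and 58.6 FPKM at 0h, 14.0, 5.86, 23.7 and 11.3 at 22h, and 0.68, 1.47, 1.31 and 1.87 at 46h. The times did not overlap, and the change at 46h against 0h was -4.40 (SE 0.31, adjusted p = 1.98e-08). TIMM17B was less abundant at 0h, 13.7 ± 1.28 FPKM, and fell to 6.40 ± 0.865 and 0.593 ± 0.328 FPKM, a change of -3.23 (adjusted p = 1.28e-09).

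TIMM23B is the symbol that the name table gives to ENSSSCG00000033700, and whether this is the gene of the channel-forming subunit TIMM23 or a copy of it was not settled here. It was 34.3, 28.4, 28.1 and 21.0 FPKM at 0h, 7.16, 3.95, 7.28 and 4.75 at 22h, and 1.21, 1.99, 1.71 and 2.34 at 46h. Its values may include reads of a near-identical copy, which the counting could split. The level was fully apart between times and fell by 2.11 at 22h against 0h (SE 0.211, adjusted p = 1.61e-05), by 1.25 at 46h against 22h (adjusted p = 0.000229) and by 3.36 over the whole period (adjusted p = 6.27e-09). TIMM21 (ENSSSCG00000032494, chromosome 1, 149845189 to 149855903) encodes a subunit that links TIM23 to the TOM complex and to respiratory assembly intermediates. It was 47.0, 47.2, 53.9 and 53.9 FPKM at 0h, 39.2, 45.2, 42.4 and 46.9 at 22h, and 5.56, 7.35, 6.89 and 8.31 at 46h. The 22h libraries lay just below those of 0h and the 46h libraries far below both. The change in the first interval was -0.21 (95% confidence interval -0.53 to 0.10, adjusted p = 0.292), and in the second -2.48 (SE 0.149, adjusted p = 8.2e-09).

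TIMM50, the presequence receptor of the inner membrane, was 3.78 ± 0.593, 1.06 ± 0.537 and 0.31 ± 0.11 FPKM (SD, n = 4). It fell by 1.24 at 22h against 0h (adjusted p = 0.000209), and its further change of -0.62 lost its call without 22h replicate 3 (-0.46) or 46h replicate 4 (-0.56) and under median-of-ratios scaling (-0.51), and was 0.02 with quantile normalization. TIMM44, which tethers the heat shock protein motor to the channel, was 4.16 ± 1.07, 2.96 ± 1.56 and 0.915 ± 0.312 FPKM, with a change of -0.46 at 22h against 0h that did not pass (adjusted p = 0.214) and of -0.96 from 22h to 46h (adjusted p = 0.00943) that did, although it did not with quantile normalization (-0.43).

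The carrier insertion pathway was led by its channel. TIMM22 (ENSSSCG00000017803, chromosome 12, 46897580 to 46903210) encodes the channel that inserts metabolite carriers into the inner membrane, and at 0h it was the most abundant TIMM member. It was 220.3, 220.1, 191 and 209 FPKM at 0h, 91.0, 61.6, 179.7 and 114 at 22h, and 5.51, 4.03, 9.93 and 7.12 at 46h. The times were apart, yet the 22h libraries spread over a wide range, with replicate 3 close to the 0h level. The change was -1.01 at 22h against 0h (SE 0.29, adjusted p = 0.0166), -3.83 from 22h to 46h (adjusted p = 9.22e-08) and -4.84 overall (adjusted p = 3.96e-09). Without 22h replicate 2 the first of these was -0.76 and did not pass (adjusted p = 0.0567).

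The small TIM chaperones, which carry hydrophobic precursors across the intermembrane space, were far less abundant and less uniform. TIMM13 (ENSSSCG00000022757, chromosome 2, 76146946 to 76148163) was 17.2, 19.1, 22.1 and 23.3 FPKM at 0h, 8.90, 4.88, 11.9 and 7.63 at 22h, and 3.49, 5.59, 5.66 and 4.15 at 46h. The 0h libraries lay above all others, whereas those of 22h and 46h overlapped. It fell by 1.25 at 22h against 0h (adjusted p = 0.000963) and by 1.91 at 46h against 0h (adjusted p = 4.11e-06). Its change of -0.67 from 22h to 46h (adjusted p = 0.0241) lost its call without 22h replicate 1 (-0.62) or 3 (-0.49) and without 46h replicate 1 (-0.56) or 4 (-0.62), and with median-of-ratios scaling (-0.39), quantile normalization (-0.17) or no filter on low values (adjusted p = 0.0606).

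TIMM8B, a paralog of TIMM8A, which pairs with TIMM13, was chosen for display after its values were seen. It was 4.95, 4.63, 6.86 and 9.12 FPKM at 0h, 13.4, 9.21, 5.94 and 5.29 at 22h, and 2.29, 1.61, 1.75 and 3.05 at 46h. The 0h and 22h libraries overlapped and the 46h libraries lay below both, with a change of 0.32 in the first interval (adjusted p = 0.39) and of -1.52 in the second (adjusted p = 0.000336). At 46h against 0h its change of -1.20 (adjusted p = 0.00133) did not pass with quantile normalization (-0.52). TIMM10B was not called in any comparison, at 2.96 ± 1.38, 3.37 ± 1.85 and 1.83 ± 0.818 FPKM (SD, n = 4). TIMM8A and TIMM29, a subunit of the TIM22 complex, stayed under 1 FPKM in every library, and TIMM10 did not exceed 0.24 FPKM.

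**Figure D4:**
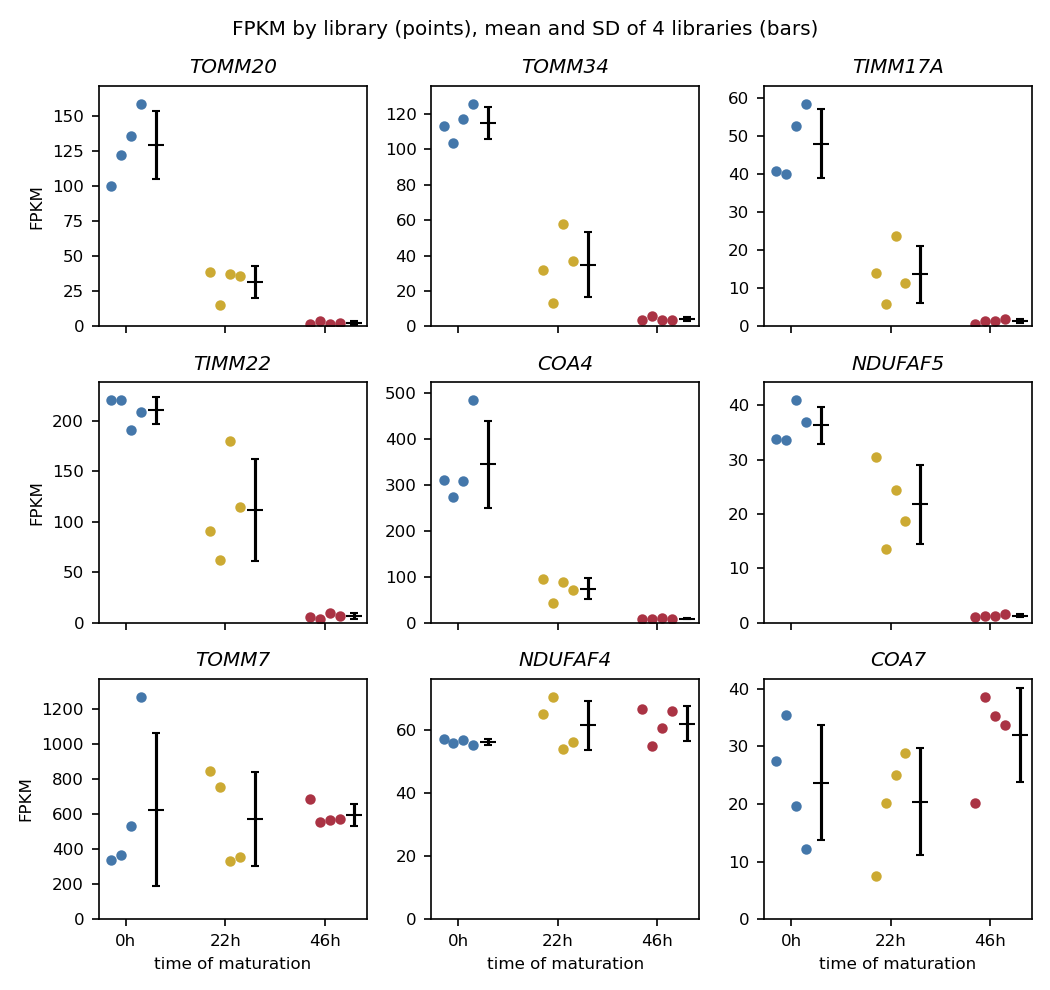
FPKM of 9 members by library (points) at 0h, 22h and 46h, with the mean and SD of the 4 libraries beside them, each panel on a linear axis from 0. The upper 6 genes fall to between 1.28 and 8.77 FPKM on average at 46h, and the lower 3 (TOMM7, NDUFAF4 and COA7, of which COA7 was added after its values were seen) overlap between times.

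Assembly factors of complex I, the NADH dehydrogenase that begins the respiratory chain, were divided between lower mRNAs and mRNAs that were not called. Of the 8 listed, 6 were tested, 4 were lower at 22h against 0h, 3 at 46h against 22h and 4 at 46h against 0h, with a median of -1.16 in the last comparison. Beside these counts, 18.9%, 32.6% and 39.1% of all genes tested were lower in the same order. NDUFAF4 (ENSSSCG00000004342, chromosome 1, 64038277 to 64044824), which acts early in the building of the peripheral arm, was 57.0, 55.6, 56.7 and 55.1 FPKM at 0h, 64.9, 70.5, 53.9 and 56.1 at 22h, and 66.5, 54.7, 60.5 and 65.9 at 46h. Its libraries overlapped in each comparison and kept within 53.9 and 70.5 FPKM. The change at 46h against 0h was 0.14, with a 95% confidence interval from -0.17 to 0.44 (adjusted p = 0.424). In TPM it was 0.03, and it was 0.46 under median-of-ratios scaling and 0.61 after quantile normalization, of which the last alone passed both thresholds.

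Its partner NDUFAF3 stood under the filter, at 2.11 ± 1.99 FPKM (SD, n = 4) at 0h, where replicate 4 reached 5.07 FPKM and the other 3 libraries averaged 1.13 ± 0.297 FPKM, and then at 0.318 ± 0.263 and 0.125 ± 0.145 FPKM. NDUFAF5 (ENSSSCG00000007076, chromosome 17, 22480344 to 22508804) encodes an enzyme that hydroxylates a subunit of the same arm. It was 33.9, 33.6, 41.0 and 36.9 FPKM at 0h, 30.5, 13.5, 24.4 and 18.6 at 22h, and 1.07, 1.16, 1.26 and 1.63 at 46h. The times were apart, with SDs of 3.41, 7.33 and 0.246 FPKM around means of 36.3, 21.8 and 1.28 FPKM. The change was -0.77 at 22h against 0h (adjusted p = 0.0128), which fell under the fold threshold without 22h replicate 2 (-0.57), and -3.27 from 22h to 46h (SE 0.209, adjusted p = 1.57e-08). Its binding partner NDUFAF8 was listed at 0 in all 12 libraries.

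NDUFAF1 (ENSSSCG00000004748, chromosome 1, 129968480 to 129993534), a factor of the membrane arm, was 36.5, 41.6, 40.5 and 46.8 FPKM at 0h, 23.1, 14.4, 21.4 and 18.9 at 22h, and 13.5, 8.48, 10.3 and 15.2 at 46h. It fell early, by 1.07 at 22h against 0h (adjusted p = 0.00109), and its 22h and 46h libraries overlapped at the edge. The change of -0.68 between them (adjusted p = 0.0105) lost its call without 46h replicate 2 (-0.54), under median-of-ratios scaling (-0.38) or quantile normalization (-0.20). In the RefSeq annotation the gene span of NDUFAF1, introns included, shares 738 bases with that of NUSAP1 on the opposite strand. Where exons overlap, reads of such genes cannot be told apart if the library does not mark strand. Whether exons overlap was not examined. Gene spans on opposite strands also share 10161 bases for NDUFAF7 and PRKD3, 1983 for TIMMDC1 and CD80, 562 for TOMM22 and JOSD1, and 202 for TIMM17B and PQBP1. Among members under the filter, they share 10634 bases for TOMM20L and TIMM9, 1053 for TOMM40L and NR1I3, and 605 for SDHAF2 and CPSF7. Those of ATPAF2 and DRC3 share 45, and those of TIMM29 and YIPF2 share 22. TIMMDC1 also overlaps a pair of pseudogenes on the opposite strand. NDUFAF7, a methyltransferase for a complex I subunit, and NDUFAF6 had 5.23 ± 1.76 and 3.33 ± 1.09 FPKM (SD, n = 4) in GV oocytes and 1.76 ± 0.468 and 0.893 ± 0.429 FPKM in MII oocytes. They fell by 1.14 (adjusted p = 0.000703) and 1.19 (adjusted p = 0.000787), and neither passed with quantile normalization (-0.46 and -0.49). NDUFAF6 was also lower at 22h against 0h, by a change of -0.84 that lost its call without 0h replicate 3 (-0.71), 22h replicate 2 (-0.71) or 22h replicate 4 (-0.76) and with no filter on low values (adjusted p = 0.0568), and NDUFAF7 was lower from 22h to 46h, by a change of -0.86 that lost it with median-of-ratios scaling (-0.63) and quantile normalization (-0.35). TIMMDC1, a membrane arm factor in spite of its TIM name, was 2.61 ± 1.0, 1.19 ± 0.267 and 1.44 ± 0.277 FPKM. It fell by 0.69 at 22h against 0h (adjusted p = 0.0129), which was -0.52 and not past the fold threshold without 0h replicate 4 and -0.58 after quantile normalization, and its change of -0.54 at 46h against 0h (adjusted p = 0.0228) lay under that threshold, although it passed without 0h replicate 1 (-0.67) or 46h replicate 3 (-0.59), in TPM (-0.65) and with a pseudocount of 0.1 (-0.77), and was 0.13 after quantile normalization.

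Complex IV, cytochrome c oxidase, has the largest group, with 12 members listed and 6 tested. Of these, 3 were lower at 22h against 0h, and 5 were lower in each comparison with 46h, with a median of -1.75 at 46h against 0h. Shares lower over all genes tested were 18.9% at 22h against 0h, 32.6% at 46h against 22h and 39.1% at 46h against 0h. COA4 (ENSSSCG00000014830), a small intermembrane space protein with paired cysteine motifs, was the most abundant member after TOMM7 at 0h. It was 310.1, 275, 309 and 485 FPKM at 0h, 94.9, 43.1, 87.8 and 70.7 at 22h, and 7.90, 7.63, 10.5 and 9.03 at 46h. The times were far apart, with 2.54% of the 0h level left at 46h. The change was -2.23 at 22h against 0h (SE 0.245, adjusted p = 2.95e-05), -2.89 from 22h to 46h (adjusted p = 2.81e-07) and -5.12 overall (adjusted p = 4.52e-10). Without 0h replicate 4, its highest library, the overall change was -4.94.

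COA7 (ENSSSCG00000027119), another intermembrane space assembly factor, was chosen for display after its values were seen, as the member with the largest change upward. It was 27.4, 35.5, 19.7 and 12.2 FPKM at 0h, 7.57, 20.2, 25.0 and 28.9 at 22h, and 20.1, 38.7, 35.3 and 33.7 at 46h. The groups overlapped in each comparison. The change at 46h against 0h was 0.47, with a 95% confidence interval from -0.35 to 1.29 (adjusted p = 0.297), and it was 1.07 and passed with quantile normalization (adjusted p = 0.0297). From 22h to 46h it was 0.73 (adjusted p = 0.134), and it was higher after median-of-ratios scaling (1.03) and quantile normalization (1.18).

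The copper and heme A steps of complex IV assembly were carried by scarcer mRNAs. COX17 (ENSSSCG00000011893, chromosome 13, 140584286 to 140594636), the copper chaperone that loads the next carriers, was 4.72, 6.46, 16.3 and 36.7 FPKM at 0h, 1.95, 3.74, 5.46 and 1.85 at 22h, and 0, 0.33, 0.87 and 0.62 at 46h. The 0h libraries spread widely and overlapped with those of 22h, and the 46h libraries lay below all others. The change at 46h against 0h was -3.19 (SE 0.479, adjusted p = 4.44e-05), and -2.67 without 0h replicate 4. At 22h against 0h its change of -1.69 (adjusted p = 0.0157) was -1.17 without 0h replicate 4 and lost its call without 22h replicate 4 (-1.52), with a pseudocount of 0.1 (-1.95, adjusted p = 0.0532) and with no filter on low values (adjusted p = 0.0535). That of -1.5 from 22h to 46h lost it without 22h replicate 3 (-1.27) or 46h replicate 1 (-1.33), after quantile normalization (-0.96) and with no filter (adjusted p = 0.0674). The copper acceptors SCO1 and SCO2 were under the filter. SCO2 went from 1.46 ± 0.382 to 0.305 ± 0.17 and 0.0175 ± 0.0206 FPKM (SD, n = 4), with the times apart (exact two-sided permutation test, p = 0.0286 each). SCO1 was 0.955 ± 0.392, 1.25 ± 0.316 and 0.395 ± 0.21 FPKM, and only its 22h and 46h libraries were apart (exact test, p = 0.0286).

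COX15, an enzyme of heme A synthesis, was 8.38 ± 1.76, 3.52 ± 0.776 and 1.80 ± 0.46 FPKM (SD, n = 4). It fell by 1.05 at 22h against 0h (adjusted p = 0.000918) and by 1.74 at 46h against 0h (adjusted p = 1.74e-06), and its change of -0.69 from 22h to 46h lost its call without 22h replicate 1 (-0.58) or 46h replicate 2 (-0.57) and under median-of-ratios scaling (-0.47) or quantile normalization (-0.18). COX10, the enzyme before it in that pathway, did not exceed 0.33 FPKM in any library. COX16 and COX18, which act on the copper-binding subunit II, were not called at 22h against 0h, with changes of -0.34 (adjusted p = 0.14) and -0.14 (adjusted p = 0.555). They then fell by 1.41 (adjusted p = 1.13e-05) and 0.95 (adjusted p = 0.000408), although COX18 did not pass with quantile normalization (-0.33), nor in that setting at 46h against 0h. COX19 went from 2.20 ± 0.352 to 0.573 ± 0.459 FPKM by 22h and was listed at 0 in all 46h libraries. COX11, which hands copper to subunit I, did not exceed 0.24 FPKM, and SURF1, a factor known from Leigh syndrome, reached 2.11 FPKM in 0h replicate 4 and at most 0.49 FPKM in the other libraries.

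No member for complexes II, III or V passed the filter. The most abundant of each complex by the mean over the 12 libraries is given here. At 0h alone, ATPAF2 (mean 1.45 FPKM) stood above ATPAF1 (1.03 FPKM), and BCS1L (1.73 FPKM) just above UQCC2 (1.72 FPKM). SDHAF2, which promotes flavin attachment to complex II and overlaps CPSF7 on the opposite strand, was 0.46, 0.73, 0.35 and 0.32 FPKM at 0h, 0.30, 0.24, 0.62 and 0.73 at 22h, and 0.68, 0.28, 1.54 and 0.76 at 46h, and the groups overlapped (exact two-sided permutation test at 46h against 0h, p = 0.343). UQCC2, a factor for cytochrome b of complex III, was 0.92, 0.98, 1.76 and 3.23 FPKM at 0h, 1.07, 0.73, 1.13 and 0.31 at 22h, and 0.12, 0.03, 0.48 and 0.28 at 46h. Its 46h libraries lay below those of 0h (exact test, p = 0.0286) and overlapped with 22h. BCS1L, which inserts the iron-sulfur subunit of complex III, went from 1.73 ± 0.662 to 0.505 ± 0.305 and 0.02 ± 0.04 FPKM (SD, n = 4) with all times apart. ATPAF1, a chaperone for the catalytic head of ATP synthase, was 1.07, 0.57, 1.15 and 1.32 FPKM at 0h, 1.18, 0.22, 0.68 and 0.99 at 22h, and 0.27, 0.56, 0.73 and 0.42 at 46h. It overlapped between times (exact test at 46h against 0h, p = 0.0571), whereas its companion ATPAF2 did not, at 1.45 ± 0.416, 0.723 ± 0.243 and 0.025 ± 0.05 FPKM.

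Over the 24 members under the filter, 67 exact tests were run. The smallest p possible, 0.0286, was reached by 6 members at 22h against 0h, 9 at 46h against 22h and 11 at 46h against 0h, each time with all libraries of the later time lower. After Benjamini-Hochberg adjustment over the 67 tests the smallest of these exact test values was 0.0736, and at this floor most of the tests would have to reach it for any to pass. Among all genes under the filter with a value in the libraries compared, the later time lay fully below the earlier one for 4.82%, 9.47% and 15.9%, and among those with a mean of at least 0.1 FPKM, a minimum set after the data were seen, for 10.2%, 19.6% and 31.9%. The corresponding members were 6 of 23, 9 of 21 and 11 of 23, and 6, 8 and 11 of 18. The complex III factors UQCC1, UQCC3, UQCC4 and UQCC5 stayed under 1 FPKM in every library.

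For some members most of the fall came after 22h. The change from 22h to 46h minus the change from 0h to 22h was tested in the same limma fit, a comparison added after the data were seen. Of the 28 members 7 changed more steeply downward after 22h and none more steeply before it, where 16.2% of all genes tested were called with a difference below 0 and 4.73% with one above 0. After quantile normalization the difference was called below 0 for 4 members and above 0 for 3 (TIMM23B, TIMM50 and TIMMDC1). In that setting TIMMDC1 changed by -0.58 at 22h against 0h, which was not called, and rose by 0.72 from 22h to 46h. Under median-of-ratios scaling TIMMDC1 was the 1 member with a difference called above 0. The largest differences were those of TIMM22 (-2.82, adjusted p = 0.00107), NDUFAF5 (-2.50, adjusted p = 0.000191), TIMM21 (-2.26, adjusted p = 2.57e-05) and TIMM8B (-1.84, adjusted p = 0.0118). TIMM17B (-1.24, adjusted p = 0.00881), COX16 (-1.06, adjusted p = 0.02) and TOMM70 (-1.0, adjusted p = 0.0468) followed. TOMM70 lost this call when any library other than 0h replicate 4 was left out, with values from -0.79 to -1.12, under median-of-ratios scaling (-0.73), after quantile normalization (-0.54), with no filter on low values (adjusted p = 0.0976) and with the replicate block (adjusted p = 0.0691). COX16 lost it without 22h replicate 2 (-0.92) or 3 (-1.05), with median-of-ratios scaling (-0.86) and quantile normalization (-0.70), and TIMM17B lost it with quantile normalization (-0.84). TOMM20, TOMM34, TIMM17A and COA4, which fell most over the whole period beside TIMM22, fell in both intervals with differences of -1.15, -0.79, -0.67 and -0.67, none of which passed (adjusted p from 0.137 to 0.404). TIMM23B leaned the other way, by 0.86 (adjusted p = 0.115), and passed only without 0h replicate 4 (0.98) or with quantile normalization (1.26).

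The ratio of a pair of members within a library does not depend on the scaling of that library, apart from the pseudocount. Of 14 pairs of paralogs or partners chosen for such ratios, TIMM17A with TIMM17B and TIMM8B with TIMM13 could be tested. The log2 ratio of TIMM17A to TIMM17B was 1.72 ± 0.32 (SD, n = 4) at 0h, 0.85 ± 0.64 at 22h and 0.55 ± 0.20 at 46h, a difference of -1.18 between 0h and 46h (exact two-sided permutation test, p = 0.0286, adjusted p = 0.0857 over 6 tests). With a pseudocount of 0.1 that difference was -0.66 (exact test, p = 0.0857). The step from 22h to 46h was -0.31 with a pseudocount of 1 and turned to 0.19 with 0.1 (exact tests, p = 0.457 and 0.629). The log2 ratio of TIMM8B to TIMM13 was -1.57 ± 0.24 at 0h, 0.00 ± 0.80 at 22h and -0.85 ± 0.53 at 46h. Its difference was 1.56 at 22h against 0h (exact test, p = 0.0286, adjusted p = 0.0857), -0.85 at 46h against 22h (exact test, p = 0.171) and 0.71 at 46h against 0h (exact test, p = 0.0857). Since the exact test cannot give less than 0.0286, a change in a single pair could not pass adjustment over the 6 tests, and these differences are a description.

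Other genes of protein import and assembly were listed by function and not by the symbol rule. Of 52 such genes 47 were found and 34 tested, of which 2 were higher and 12 lower at 22h against 0h, 3 and 20 from 22h to 46h, and 5 and 19 at 46h against 0h, with a median of -1.02 in the last comparison. Over all genes tested, 7.84% were higher and 18.9% lower, 9.87% and 32.6%, and 16.8% and 39.1% in the same order, so the numbers of higher genes are near that background. The 5 higher genes were HCCS, which attaches heme to cytochrome c (1.24, adjusted p = 0.000273), HSPA9, the mitochondrial heat shock protein of the import motor (0.84, adjusted p = 0.00132), IMMP1L, a subunit of the inner membrane peptidase (0.78, adjusted p = 0.00427), HIGD1A (0.62, adjusted p = 0.026) and LRPPRC (0.62, adjusted p = 0.0209). Among those that fell was DNAJC15, a co-chaperone of the same motor and the most abundant gene of this list at 0h, with means of 10590, 6929 and 1155 FPKM at the 3 times (-3.21, adjusted p = 1.34e-09). PET100, an assembly factor of complex IV, went from 75.5 and 57.0 FPKM to a listed 0 in the 46h libraries. OXA1L, the inner membrane insertase, fell by 3.06 (adjusted p = 1.95e-05), and CHCHD4, the import receptor of the intermembrane space that takes up COX17, COA4 and the small TIMs, by 2.43 (adjusted p = 2.43e-07).

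Counts for the proteins that these factors import or assemble stand beside those of the members. Of 72 nuclear-encoded subunits of the respiratory chain, 59 were tested, and 34, 38 and 47 were lower in the 3 comparisons (22h against 0h, 46h against 22h, 46h against 0h) with 2, 3 and 2 higher and a median of -2.21 in the last. Of 69 mitochondrial ribosomal proteins, 60 were tested, and 34, 41 and 44 were lower with 4, 3 and 6 higher and a median of -2.23. The corresponding share of members tested that were lower at 46h against 0h was 78.6%, beside 79.7% of the subunits and 73.3% of the ribosomal proteins. For all genes tested, 18.9%, 32.6% and 39.1% were lower and 7.84%, 9.87% and 16.8% higher in the 3 comparisons. No test of the difference between these lists was made.

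The last bases of the mRNAs are shown because cDNA synthesis began at the poly(A) tail and because the elements TTTTAT and TTTTAAT near the 3′ end are known as sites of cytoplasmic polyadenylation in oocytes. This search was chosen after the data were seen. Each window has 30 bases of the RefSeq transcript of Sscrofa11.1, written as DNA on the gene's strand, with capitals for TTTTAT or TTTTAAT and for the polyadenylation signals AATAAA or ATTAAA. TOMM20 (chr14:56127627-56127656), NDUFAF5 (chr17:22508775-22508804), TIMM21 (chr1:149845230-149845259), TIMM13 (chr2:76148068-76148097) and TIMM50 (chr6:48134622-48134651) are the members lower at 46h against 0h that held such an element in the last 100 bases. TOMM7 (chr9:91570069-91570098) and NDUFAF4 (chr1:64038284-64038313) were not called and held a signal alone.
TOMM20: gcagTTTTATtattgcttgcgcctcagctg
NDUFAF5: gcAATAAAtaTTTTATttaatattaatgta
TIMM21: agcaTTTTATgattttTTTTATgttatgta
TIMM13: tcttTTTTATcttttttggtctttaatgtc
TIMM50: agagTTTTATATTAAActttaaaatgttgg
TOMM7: agactgtATTAAAATAAAtgtttttaacaa
NDUFAF4: tataAATAAAagagttatcgtattttggca
TTTTAT or TTTTAAT, searched on the transcript strand, stood in the last 100 bases of 5 of 17 matched members that were lower at 46h against 0h (29.4%), beside 15.3% of 2227 matched genes that were lower. It stood in 0 of 5 matched members not called (NDUFAF4, TIMM10B, TIMMDC1, TOMM22 and TOMM7), and in 21.5% of 5773 matched genes tested. Over all 36 matched members it was 7 (19.4%), with ATPAF2 and TIMM8A as the other two. AATAAA or ATTAAA stood in 26 of the 36 (72.2%), beside 73.5% of genes tested. With 5 and 17 members these shares are a description, and the annotated transcript end may not be the end used in the oocyte. Of the members with an element, TIMM21 and NDUFAF5 fell more steeply after 22h, whereas the difference between intervals did not pass for TOMM20 (-1.15, adjusted p = 0.137), TIMM50 (0.62, adjusted p = 0.18) or TIMM13 (0.58, adjusted p = 0.319).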

How the data were processed

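RNA of denuded porcine oocytes was amplified from oligo-dT by SMART-Seq2 and sequenced in 12 libraries, 4 each at 0h, 22h and 46h. The authors trimmed reads with Trim Galore, aligned them with STAR to Sscrofa11 and estimated expression with RSEM, and the deposited values are FPKM, 1 file per library. HTSeq counts were not used here, so depth is unknown and no counting interval is given. Groups come from the sample labels.

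Identifiers were named from a gene name table (15029) and, for 172 more, the gene table of the study. Genes averaging 1 FPKM or more were fitted as log2(FPKM + 1), a pseudocount of 1, with limma 3.58.1 in R 4.3.3 (stage factor, empirical Bayes with trend, Benjamini-Hochberg over 7013 genes). Calls needed an adjusted p under 0.05 and a fold change over 1.5, the thresholds of the study. Members under the filter and within-library ratios were compared by exact two-sided permutation tests of the difference of means, with 70 arrangements of 4 against 4. These tests were coded in Python 3.11.15 with numpy 2.4.6, and scipy 1.17.1 gave the t quantiles of the confidence intervals. Promoters and transcript ends are those of RefSeq for Sscrofa11.1, matched by symbol for 36 members, and 3′ ends were searched after the data were seen. Plots were drawn with matplotlib 3.10.9.

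Members, role groups, gene lists and tests were chosen with earlier results of these data known. Values were given library by library for the member of each role with the highest mean over the 12 libraries. They were also given for the members of a role that fell most at 46h against 0h and those that fell most in the other comparisons. TOMM22, TIMM8B and COA7 were added after their values were seen. Alternatives were pseudocount, filter, scaling, samples in the fit, a replicate block and leaving out each library.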

Additional observations from a re-analysis of the deposited data

Results flagged for a closer look

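Within the groups of 4 libraries, the gap between an extreme library and its nearest neighbour was set against the whole range of the group and compared with Dixon's 95% critical value. Among 48 groups of 16 members this value was passed in 4 (8.33%), where chance gives about 1 in 20 groups. COA4 was highest in 0h replicate 4, at 484.76 FPKM, with a gap of 0.831 of the range. TOMM20 was lowest in 22h replicate 2, at 15.05 FPKM (0.87 of the range). TOMM34 was highest in 46h replicate 2, at 5.78 FPKM (0.916 of the range). TOMM7 was highest in 46h replicate 1, at 687.91 FPKM (0.863 of the range). The calls of COA4, TOMM20 and TOMM34 and the absence of a call for TOMM7 did not change when any single library was left out.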

How the results depend on the processing

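Of the counts and medians over the members, none changed direction under the alternatives tried. For 22h against 0h the median change was -1.02 with a pseudocount of 0.1, -0.36 with no filter on low values and -1.0 with a mean of at least 5 FPKM. From 22h to 46h it was -1.56, -0.61 and -1.74 under these settings and -0.39 after quantile normalization. For 46h against 0h, -2.32, -1.19 and -3.06 were obtained, and -1.51 after median-of-ratios scaling, -1.08 after quantile normalization and -1.93 in TPM. The number of members tested was 51 with no filter and 18 with the higher minimum, where 14 were lower at 46h against 0h. From 22h to 46h, 1 member (COA7) was higher after median-of-ratios scaling, and 2 (COA7 and TIMMDC1) were higher and 12 lower after quantile normalization. Quantile normalization also gave 2 higher members for 46h against 0h. Steeper falls after 22h numbered 4 after quantile normalization. Differences between intervals called above 0 numbered 1 (TIMMDC1) after median-of-ratios scaling and 3 (TIMM23B, TIMM50 and TIMMDC1) after quantile normalization. In the latter setting the change of TIMMDC1 before 22h was not called, and it was higher after it. The cause of these shifts was not tested.

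Leaving out each library in turn gave medians from -0.95 to -0.70, -1.07 to -0.82 and -1.81 to -1.67 for 22h against 0h, 46h against 22h and 46h against 0h. The members lower ranged from 14 to 17, 18 to 22 and 22 to 24, and those higher were 0 throughout. Between 5 and 8 fell more steeply after 22h, and 0 to 1 before it (TIMMDC1 without 0h replicate 1, TIMM23B without 0h replicate 4, TIMM50 without 22h replicate 3).

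Whether libraries of equal replicate number were paired is not known. Deviations from the stage means correlated between -0.466 and 0.381 for libraries of the same number, and not every library correlated best with its own. Between 22h and 46h these values were 0.381, 0.00884, 0.211 and 0.127 for replicates 1 to 4. Between 0h and 22h they were -0.466, 0.0823, -0.188 and -0.465, and between 0h and 46h -0.241, 0.0845, -0.042 and -0.281. Such correlations cannot decide whether the replicates were paired. With the replicate block, 17, 22 and 22 members were lower and 0 higher, as without it, and of the members' calls only that of TOMM70 between intervals was lost (-1.0, adjusted p = 0.0691). Depth limits what can be said of members under 1 FPKM, for which no count is known.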
